A study of Mus musculus with 20 samples.

Results

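The genes described here encode the machinery of oxidative phosphorylation. They were taken from the count table by symbol, as protein-coding genes whose symbols begin with Ndufa, Ndufb, Ndufc, Ndufs, Ndufv, Uqcr, Atp5, Cox4, Cox5, Cox6, Cox7 or Cox8, together with Sdha, Sdhb, Sdhc, Sdhd and Cyc1 and the mitochondrially encoded mt-Nd, mt-Co, mt-Cytb and mt-Atp genes. Among 55573 genes 108 matched, and the 102 with a mean of at least 50 counts over the 20 libraries were kept, 89 of them nuclear and 13 mitochondrially encoded. The 6 genes under that mean were Cox4i2 with 9.25 counts, Cox6a2 with 0.85, Cox8c with 0.3, Cox7b2 with 0.2, and Cox8b and an additional identifier of Atp5o with 0, and the member just inside it was Cox7a1 with 73.85. All 102 members passed the expression filters of the tests below. The symbols took in genes that are not subunits: 8 Ndufaf genes encode assembly factors of complex I, and Atp5s, Cox7a2l and Ndufa4l2 are likewise counted apart below.

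Oxidative phosphorylation takes place in the inner mitochondrial membrane. Complexes I and II pass electrons from NADH and succinate to ubiquinone, complex III passes them to cytochrome c and complex IV to oxygen, and the proton gradient built on the way drives ATP synthesis by complex V. Most subunits are encoded in the nucleus and imported, while the mitochondrial genome encodes a core of hydrophobic subunits of complexes I, III, IV and V that are transcribed inside the organelle. Pluripotent stem cells draw much of their ATP from glycolysis, and respiration is known to gain importance as they differentiate.

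The 20 libraries came from mouse induced pluripotent stem cells (iPSCs) and the embryoid bodies (EBs) grown from them. EBs are cell aggregates that form in hanging drops once leukaemia inhibitory factor (LIF) is withdrawn, and they were plated on gelatin after 3 days. There were 2 wild type lines, WT#1-4 and WT#20D-17, and 2 lines lacking the NADPH oxidase gene Nox4, Nox4-/- #5-8 and Nox4-/- #5-23, each with 1 library on days 0, 3, 5, 7 and 14. The study's iPSC lines were clonal and had been made from embryonic fibroblasts with retroviruses carrying Oct4, Sox2, Klf4 and c-Myc. They were kept on mouse embryonic fibroblast feeder cells with LIF before differentiation. WT#20D-17, which the labels give as wild type, is not named in the study's text, and it is taken here to have been made and kept in the same way. The labels' titles give day 14 for the last day and their protocol gives day 10, and day 14 is used here. Each line was a single clone, so a difference between genotypes rests on 2 clones a side at most.

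Libraries held between 20294968 and 27708023 counts. Nox4 was between 0.149 and 0.874 CPM (counts scaled to a common library size) in WT#1-4, between 2.62 and 9.01 in WT#20D-17 and at most 0.0839 in both Nox4-/- lines. The lines differed in markers of cell state. On day 0 WT#20D-17 held Nanog at 383 CPM and Zfp42 at 41.6, whereas in WT#1-4 and both Nox4-/- lines Nanog stayed between 0.04 and 1.03 CPM on all days and Zfp42 was at 0, with Pou5f1 between 1278 and 5760 CPM. The sum of 6 endoderm markers went from 653 to 21570 CPM between day 0 and day 14 in WT#20D-17 and from 287 to 2091 in WT#1-4. It was between 38.3 and 875 CPM in the Nox4-/- lines. In WT#1-4 as in the Nox4-/- lines, 5 of the 6 (Afp, Apoa1, Lama1, Sox17 and Ttr) were near the floor. They were at most 1.55 CPM in WT#1-4 and under 1 CPM on every day in both Nox4-/- lines. Sparc thus made up nearly all of the sum in these lines, going from 287 to 2089 CPM in WT#1-4. Of 8 cardiomyocyte markers, Actc1, Myh6, Myh7, Nppa and Tnnt2 were under 1 CPM on every day in both Nox4-/- lines and at most 2.93 CPM in WT#1-4. The sum of the 8 was between 8.77 and 358 CPM in WT#20D-17. The sum of 7 feeder fibroblast markers was between 5.00 and 111 CPM in WT#1-4 and the Nox4-/- lines, and it went from 22.8 to 2993 in WT#20D-17. Other markers were lower in WT#20D-17. The sum of 5 neural markers was between 44.2 and 191 CPM in WT#20D-17. It was between 846.5 and 1205 CPM in WT#1-4, 1095 and 1404 in Nox4-/- #5-8, and 510 and 992 in Nox4-/- #5-23. Fgf4, a pluripotency marker, went from 93.4 to 2.26 CPM in WT#20D-17 and stayed between 58.4 and 192 in WT#1-4 and the Nox4-/- lines. The part of cell makeup in the results below was not tested. In whole cultures, fewer cells of a type and less RNA per cell cannot be told apart.

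One library stood apart for the nuclear members. Nox4-/- #5-8 on day 14 held the highest value of all 20 libraries for 68 of the 89 nuclear members, and the results that rest on it are given below with and without it. Levels are CPM scaled with the trimmed mean of M-values (TMM), log2 changes within a line are differences of log2(CPM + 1), and log2 fold changes across lines are those of the edgeR fit. A gene is called where its false discovery rate (FDR), adjusted by the Benjamini-Hochberg method over all genes tested, was under 0.01. The comparisons of days, lines and genotypes share libraries, so they are not independent of each other.

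As a group, the mitochondrially encoded members were the most abundant. Per kb of exon length the median mean level was 688 CPM per kb for the 13 mitochondrially encoded and 51.1 for the 89 nuclear members. Per kb, mt-Co1, a catalytic subunit of complex IV, led with 5728 CPM per kb, ahead in the counts as deposited of mt-Nd1 of complex I with 1737 and mt-Cytb of complex III with 1396. The leading nuclear members were Cox8a of complex IV with 363 CPM per kb, the catalytic core subunits of complex V Atp5a1 (alpha) with 308 and Atp5b (beta) with 285, Cox6a1 with 243 and Atp5g2, a gene of the membrane ring of complex V, with 197. The mitochondrially encoded members also varied more over libraries: the highest library held 8.44 times the lowest in the median mitochondrially encoded member and 2.90 times in the median nuclear member. The levels of mt-Nd3, mt-Nd4l, mt-Atp6, mt-Co2 and mt-Co3 depend on the division of reads with nuclear copies, described below. With the copies added mt-Co1 still led, at 6436 CPM per kb, but mt-Atp6 with 3967, mt-Co2 with 3862 and mt-Co3 with 3356 then came before mt-Nd1 with 1743 and mt-Cytb with 1402.

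On day 14 most nuclear members were slightly lower than on day 0 in 3 lines and higher in the remaining one. Summed over the 89 nuclear members, the level went from 11807 CPM on day 0 to 8129 on day 14 in WT#1-4, from 11277 to 8723 in WT#20D-17 and from 11929 to 8375 in Nox4-/- #5-23. Only Nox4-/- #5-8 went the other way, from 12656 to 15834 CPM. The median log2 change of the nuclear members on day 14 was -0.57 in WT#1-4, -0.34 in WT#20D-17 and -0.34 in Nox4-/- #5-23, with 71 or 72 of the 89 lower in each, and 0.48 in Nox4-/- #5-8, with 77 higher. Before day 14 that line ran with the others, its sum lying at 11247, 11274 and 10903 CPM on days 3, 5 and 7. In the fit across all 4 lines the median log2 fold change against day 0 was -0.06 on day 3, -0.19 on day 5, -0.27 on day 7 and -0.14 on day 14, with 58, 72, 74 and 60 of the 89 members negative, and the median over all 18474 genes tested lay between -0.03 and 0.04.

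**Figure D1:**
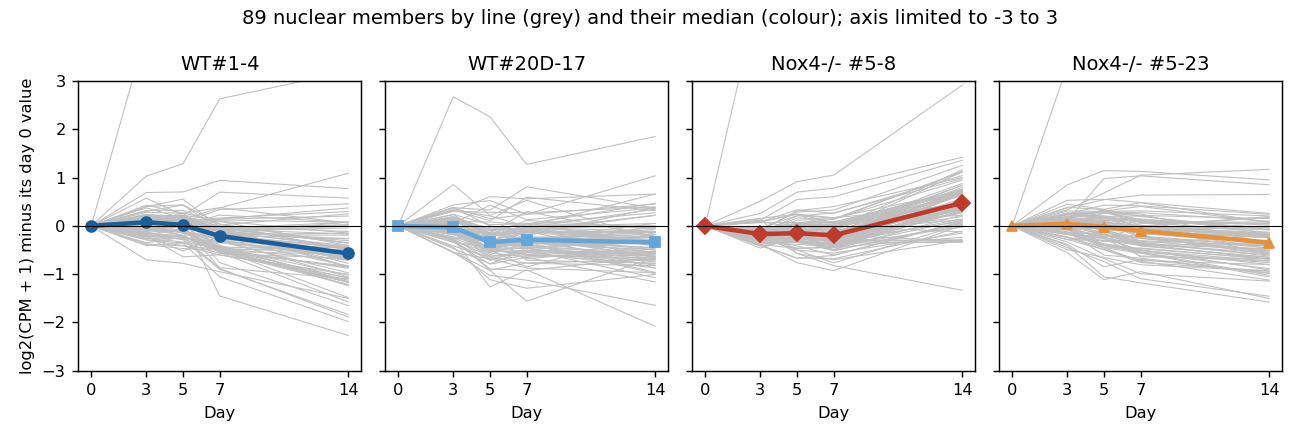
Change of each of the 89 nuclear members (grey lines) and their median (coloured line) from day 0 in the 4 lines, on the scale of log2(CPM + 1), against the day of culture; the axis is limited to -3 to 3. The median ends at -0.57, -0.34 and -0.34 in WT#1-4, WT#20D-17 and Nox4-/- #5-23 and turns up to 0.48 on day 14 in Nox4-/- #5-8.

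Across lines, day 14 differed from day 0 for 17 of the 89 nuclear members, 6 of them higher and 11 lower. This is 19.1% of the members, against 27.8% of all genes tested by edgeR's quasi-likelihood test with line as a term (13.5% lower and 14.3% higher). The counts by complex and by list below stand beside the same shares. In that test 32 of the 89 nuclear members had an unadjusted p under 0.05, as had 9293 of all 18474 genes. Most of the calls rested on all 4 lines being in the fit, since 6 nuclear members were called without WT#1-4, 11 without WT#20D-17, 19 without Nox4-/- #5-8 and 4 without Nox4-/- #5-23. Ndufa4l2, Ndufa6, Ndufaf4 and Atp5a1 were called in each of these fits. On day 14, 12 nuclear members were lower than on day 0 in 4 of 4 lines and 9 were higher in 4 of 4, where 19.1% and 17.9% of all genes were. For 7 nuclear members every day 14 value lay below every day 0 value, as for 9.43% of all genes, namely Ndufab1, Ndufs1, Ndufaf4, Sdha, Cyc1, Atp5a1 and Atp5b, and for Ndufa4l2 and Ndufa6 every day 14 value lay above, as for 7.05%. With the test on any of the 4 later days, 7 nuclear members were called (17.3% of all genes), with Ndufa4l2, Ndufa6 and Ndufv3 higher and Cyc1, Atp5a1, Atp5b and Ndufaf4 lower.

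**Figure D2:**
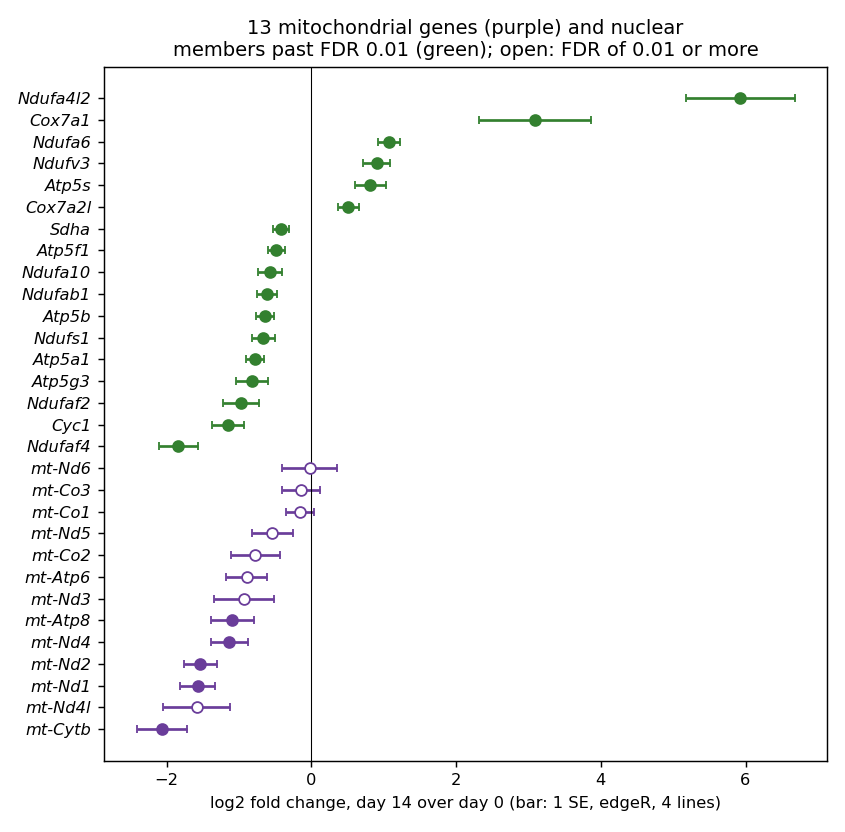
Log2 fold change of day 14 over day 0 (x axis; points with bars of 1 SE from edgeR, 4 lines) for the 13 mitochondrially encoded members in purple and the nuclear members past an FDR of 0.01 in green; open points had an FDR of 0.01 or more. Among the nuclear members shown, Ndufa4l2 lies farthest to the right at 5.93 and Ndufaf4 farthest to the left at -1.84, and the mitochondrially encoded members run from -2.07 for mt-Cytb to -0.02 for mt-Nd6.

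Complex V, the ATP synthase, had 16 nuclear members, with a median log2 fold change of -0.16. Of these 4 fell and none rose, where 13.5% of all genes fell and 14.3% rose. Both large subunits of the catalytic head of complex V were lower in every line. Atp5a1, its alpha subunit, went from 1308 to 652 CPM in WT#1-4, 1258 to 710.3 in WT#20D-17, 1264 to 998 in Nox4-/- #5-8 and 1238 to 625 in Nox4-/- #5-23. Day 0 values lay between 1238 and 1308 CPM in the 4 lines and day 14 values between 625 and 998, without overlap. The log2 fold change was -0.78 ± 0.13 (SE, 4 lines, FDR 0.000183 by edgeR). Atp5b, the catalytic beta subunit, went from 1482 to 820.0 CPM in WT#1-4, 1508 to 1031 in WT#20D-17, 1455 to 1175 in Nox4-/- #5-8 and 1558 to 843 in Nox4-/- #5-23, again without overlap. Its log2 fold change was -0.64 ± 0.12 (SE, FDR 0.000709 by edgeR), and the call was lost without WT#1-4 (FDR 0.0152) and without Nox4-/- #5-23 (0.0212). Atp5f1, a peripheral stalk subunit, also fell, by 0.48 ± 0.12 on the log2 scale, and lost its call without the same lines (0.0322 and 0.0545).

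The ring that turns in complex V is built from identical copies of subunit c, which 3 genes encode with the same mature protein, Atp5g1, Atp5g2 and Atp5g3. Atp5g3 went from 248 to 68.9 CPM in WT#1-4, 133 to 85.4 in WT#20D-17, 209 to 213 in Nox4-/- #5-8 and 209 to 95.7 in Nox4-/- #5-23, so that 3 lines were lower and Nox4-/- #5-8 was almost level. Its log2 fold change was -0.82 ± 0.22 (SE, FDR 0.00755 by edgeR), and the call was lost without WT#1-4 (FDR 0.0578), without WT#20D-17 (0.0201) and without Nox4-/- #5-23 (0.0904). Atp5g1 had a change of -0.92 and just missed the threshold (FDR 0.0104), and without the day 14 library of Nox4-/- #5-8 it was called at -1.35 (FDR 9.63e-05). Atp5g2 had a change of 0.16 and was not called. The share of Atp5g2 in the summed level per kb of the 3 genes accordingly went from 55.6 to 84.4% in WT#1-4, from 69.4 to 79.2% in WT#20D-17, from 60.5 to 70.4% in Nox4-/- #5-8 and, for Nox4-/- #5-23, from 58.6 to 70.7%, higher in 4 of 4 lines. RSEM had divided reads of Atp5g1 and Atp5g2 in all libraries, as their decimals show, and none of Atp5g3.

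Complex I was represented by 36 nuclear subunits, with a median of -0.12. Of these 2 rose and 3 fell, where 14.3% of all genes rose and 13.5% fell. Ndufa6, an accessory subunit of the matrix arm, rose. It went from 51.7 to 111 CPM in WT#1-4, 60.7 to 126 in WT#20D-17, 52.2 to 135 in Nox4-/- #5-8 and 40.4 to 64.1 in Nox4-/- #5-23, with every day 14 value above every day 0 value. The log2 fold change was 1.07 ± 0.15 (SE, FDR 5.60e-05 by edgeR), while the median over the 36 subunits was negative. Ndufv3, a small accessory subunit of the NADH-oxidising module, rose by 0.90 ± 0.18 (FDR 0.000899), from 39 to 67.4 CPM in WT#1-4, 69.5 to 86.7 in WT#20D-17, 45.6 to 124 in Nox4-/- #5-8 and 35.7 to 70.1 in Nox4-/- #5-23, with overlapping ranges. Its call was lost without WT#1-4 (FDR 0.0107) and without Nox4-/- #5-23 (0.0152).

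Ndufs1, the largest subunit of the NADH-oxidising module and a carrier of iron-sulphur clusters, fell by 0.67 ± 0.16 on the log2 scale (FDR 0.00331 by edgeR). It went from 134 to 57.1 CPM in WT#1-4, 155 to 91.7 in WT#20D-17, 156 to 125 in Nox4-/- #5-8 and 147 to 106 in Nox4-/- #5-23, without overlap between the days, and its counts held decimals from divided reads in every library. The call was lost with any 1 line left out, with FDR between 0.0103 and 0.0254. Ndufab1, the acyl carrier protein of the mitochondrion, fell by 0.61 ± 0.14, and Ndufa10, an accessory subunit of the membrane arm, by 0.57 ± 0.16. Neither was called without WT#1-4 (FDR 0.0286 and 0.0928) or without Nox4-/- #5-23 (0.0418 and 0.0995), nor Ndufa10 without WT#20D-17 (0.0267). Of other core subunits that carry the redox centres, Ndufv1, which binds NADH, had a change of -0.60 (FDR 0.0140), Ndufv2 -0.19, Ndufs7 -0.06 and Ndufs8 -0.09, and none was called.

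Of the 8 Ndufaf genes, 2 fell and none rose, with a median of -0.45, where 13.5% of all genes fell and 14.3% rose. Ndufaf4, an assembly factor of the early complex I intermediates, went from 38.2 to 7.14 CPM in WT#1-4, 28 to 5.88 in WT#20D-17, 42 to 16 in Nox4-/- #5-8 and 48.5 to 17.1 in Nox4-/- #5-23. Every line was lower, and the log2 fold change was -1.84 ± 0.27 (SE, FDR 6.74e-05 by edgeR). Ndufaf2, a late assembly factor, fell by 0.97 ± 0.25 (FDR 0.00543), and its call was lost without WT#1-4 (FDR 0.0369), without WT#20D-17 (0.0380) or without Nox4-/- #5-23 (0.0381). Of 7 further complex I assembly factors in the table that are no members, 3 fell and none rose.

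Sequence near the start sites was compared for the 72 nuclear members with a promoter in the RefSeq table of GRCm38.p6, from 250 bases before to 50 after the start. Nuclear respiratory factor 1 (NRF1), a transcription factor named for its sites in respiratory genes, binds a palindromic site, and its core letters GCGCATGC on either strand stood in 12 of the 72 (16.7%), against 4.11% of the 16515 protein-coding promoters. The letters AAGATGGC of YY1 stood in 10 (13.9%, against 3.64%) and CCGGAAGT of GABPA in 5 (6.94%, against 5.94%). The NRF1 letters and their reverse complement overlap, so a full palindrome counts on both strands. Of the 12 members with NRF1 letters, Ndufa6 and Ndufaf4 were called on day 14, in opposite directions, and the other 10 (Ndufa11, Ndufa8, Ndufaf5, Sdhb, Uqcr11, Uqcrc1, Cox6a1, Atp5g2, Atp5k and Atp5l) were not. The 250 bases before the start of both genes, and of Cox7a1, the member of complex IV that rose, are printed to show what members with opposite changes hold, with NRF1 letters in capitals. In Ndufaf4 they lie at bases -113 to -106 and -111 to -104, overlapping as 1 palindrome, and again at 2 to 9 after the start, beyond the stretch printed, and in Ndufa6 at -83 to -76. The Cox7a1 stretch holds none of the 3 motifs.
Ndufaf4, chr4:24897833-24898082, plus strand: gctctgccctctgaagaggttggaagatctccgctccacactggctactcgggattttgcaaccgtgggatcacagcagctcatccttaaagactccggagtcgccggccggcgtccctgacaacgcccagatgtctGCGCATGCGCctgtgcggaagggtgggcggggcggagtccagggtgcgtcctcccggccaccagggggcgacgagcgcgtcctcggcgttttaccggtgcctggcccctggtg
Ndufa6, chr15:82354292-82354541, minus strand: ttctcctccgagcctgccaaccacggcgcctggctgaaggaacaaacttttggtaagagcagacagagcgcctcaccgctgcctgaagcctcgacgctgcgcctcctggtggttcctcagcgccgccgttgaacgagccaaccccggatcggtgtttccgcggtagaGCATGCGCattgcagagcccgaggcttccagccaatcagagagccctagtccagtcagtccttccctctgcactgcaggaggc
Cox7a1, chr7:30183921-30184170, plus strand: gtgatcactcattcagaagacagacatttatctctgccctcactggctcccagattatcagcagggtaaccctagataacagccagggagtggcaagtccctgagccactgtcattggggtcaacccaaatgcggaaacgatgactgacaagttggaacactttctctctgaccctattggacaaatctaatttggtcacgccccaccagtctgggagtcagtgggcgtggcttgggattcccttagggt

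Complex II, succinate dehydrogenase, consists of 4 nuclear subunits and shares its reaction with the citric acid cycle. Sdha, its flavoprotein, went from 245 to 204 CPM in WT#1-4, 265 to 163 in WT#20D-17, 271 to 216 in Nox4-/- #5-8 and 249 to 187 in Nox4-/- #5-23, without overlap between day 0 and day 14. It fell by 0.42 ± 0.11 on the log2 scale (SE, FDR 0.00494 by edgeR), and the call was lost with any 1 line left out (FDR between 0.0133 and 0.0470). Sdhb, the iron-sulphur subunit, had a change of -0.27 and was not called, and the median of the 4 was -0.30. Of 13 citric acid cycle enzymes, 3 fell and none rose, where 13.5% of all genes fell and 14.3% rose.

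Complex III had 9 nuclear members, of which Cyc1 alone passed the test. Cyc1 encodes cytochrome c1, the haem protein that hands electrons to cytochrome c. It went from 192 to 47.9 CPM in WT#1-4, 169 to 85.8 in WT#20D-17, 161 to 131 in Nox4-/- #5-8 and 191 to 63.3 in Nox4-/- #5-23. All 4 lines were lower and the ranges did not overlap, though Nox4-/- #5-8 kept most of its day 0 level. The log2 fold change was -1.16 ± 0.22 (SE, FDR 0.000649 by edgeR), and without Nox4-/- #5-23 the call was lost (-1.02, FDR 0.0192). Uqcrfs1, the Rieske iron-sulphur protein, had a change of -0.38 (FDR 0.0291). Cycs, the somatic cytochrome c that Cyc1 reduces and no member itself, fell by 1.25 ± 0.27 (FDR 0.00137), with its call lost without Nox4-/- #5-23 (0.0159).

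Complex IV, cytochrome c oxidase, had 13 nuclear members and the most isoform pairs. Cox7a1, the isoform of heart and skeletal muscle, was the member that rose. It went from 0.190 to 9.92 CPM in WT#1-4, 3.69 to 2.89 in WT#20D-17, 0.319 to 8.95 in Nox4-/- #5-8 and 0.483 to 1.68 in Nox4-/- #5-23, higher on day 14 in 3 lines and lower in WT#20D-17, where it was highest at 7.49 CPM on day 3. The log2 fold change was 3.09 ± 0.78 (SE, FDR 0.00446 by edgeR), at levels near the lowest of all members. The call was lost without WT#1-4 (2.42, FDR 0.0474), without Nox4-/- #5-8 (2.30, 0.0759), without Nox4-/- #5-23 (3.45, 0.0201) and without the day 14 library of Nox4-/- #5-8 (2.38, 0.0218). The share of Cox7a1 in the level per kb of Cox7a1 and its widely expressed counterpart Cox7a2 went from 0.285 to 14.3% in WT#1-4, from 5.26 to 5.95% in WT#20D-17, from 0.411 to 6.55% in Nox4-/- #5-8 and, for Nox4-/- #5-23, from 0.712 to 2.86%, and Cox7a2 itself had a change of -0.02. Beside it, the sum of 4 skeletal muscle markers was at most 1.74 CPM in WT#1-4 and the Nox4-/- lines and between 1.80 and 53.4 in WT#20D-17, and the sum of the cardiomyocyte markers was between 113 and 228 CPM in WT#1-4 and between 21.5 and 68.8 in the Nox4-/- lines. A single marker, Ryr2, made up most of the latter sum, at 105 to 227 CPM in WT#1-4 and 20.0 to 66.8 in the Nox4-/- lines. The part of such cells in the result was not tested.

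None of the other complex IV isoforms passed the test. Cox4i1, the common form of subunit 4, had a change of -0.26, and Cox4i2, its hypoxia-linked form, made up at most 1.40% of the pair in any library. Cox6a2, the muscle form of subunit 6a, reached at most 0.308% of its pair, and Cox7b2 0.161%. Cox6a1 had a change of 0.06, Cox6b1 0.14, Cox6b2, the testis form of subunit 6b, 0.07, Cox7b -0.26 and Cox8a 0.04, and none was called. Cox6b2 was nonetheless present throughout, at 10.4 to 31.5% of its pair. Cox7a2l, a relative of Cox7a2 that links complexes III and IV into supercomplexes, rose by 0.51 ± 0.14 (FDR 0.00921), from 241 to 312 CPM in WT#1-4, 63.4 to 101 in WT#20D-17, 228 to 377 in Nox4-/- #5-8 and 185 to 213 in Nox4-/- #5-23, and without the day 14 library of Nox4-/- #5-8 it was not called (0.44, FDR 0.0231), nor with any 1 line left out (FDR between 0.0234 and 0.0604). Atp5s, known as coupling factor B, rose by 0.82 ± 0.22 (FDR 0.00623) and lost its call without WT#20D-17, without either Nox4-/- line or without that library, with FDR between 0.0112 and 0.0969.

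Ndufa4l2 (chr10:127514967-127517154, plus strand, GRCm38) had the largest change of all members. It encodes a relative of Ndufa4, a complex IV subunit, and is known as a target of hypoxia-inducible factor 1. On day 0 it was at 3.84 CPM in WT#1-4, 1.07 in WT#20D-17, 0.359 in Nox4-/- #5-8 and 0.260 in Nox4-/- #5-23. By day 3 it had reached 78 CPM in WT#1-4, 12.2 in WT#20D-17, 40.7 in Nox4-/- #5-8 and 11.5 in Nox4-/- #5-23. On day 14 it stood at 155 CPM in WT#1-4, 6.46 in WT#20D-17, 188 in Nox4-/- #5-8 and 48.4 in Nox4-/- #5-23. It was thus higher on day 3 than on day 0 in every line, and in 3 of the lines it was highest on day 14. The log2 fold change of day 14 over day 0 was 5.93 ± 0.75 (SE, FDR 1.86e-05 by edgeR), a 60.9-fold difference, and it stayed called with any line left out. Ndufa4 went from 162 to 57.4 CPM in WT#1-4, 178 to 91.1 in WT#20D-17, 198 to 206 in Nox4-/- #5-8 and 168 to 98.9 in Nox4-/- #5-23, a change of -0.72 that was not called (FDR 0.0153) and was -1.07 and called without the day 14 library of Nox4-/- #5-8. The share of Ndufa4l2 in the level per kb of the pair went from 2.89 to 77.3% in WT#1-4, from 0.748 to 8.21% in WT#20D-17, from 0.229 to 53.5% in Nox4-/- #5-8 and, for Nox4-/- #5-23, from 0.194 to 38.1%. WT#20D-17 stayed lowest of the 4 lines from day 5 onwards, at 8.89, 4.00 and 6.46 CPM.

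**Figure D3:**
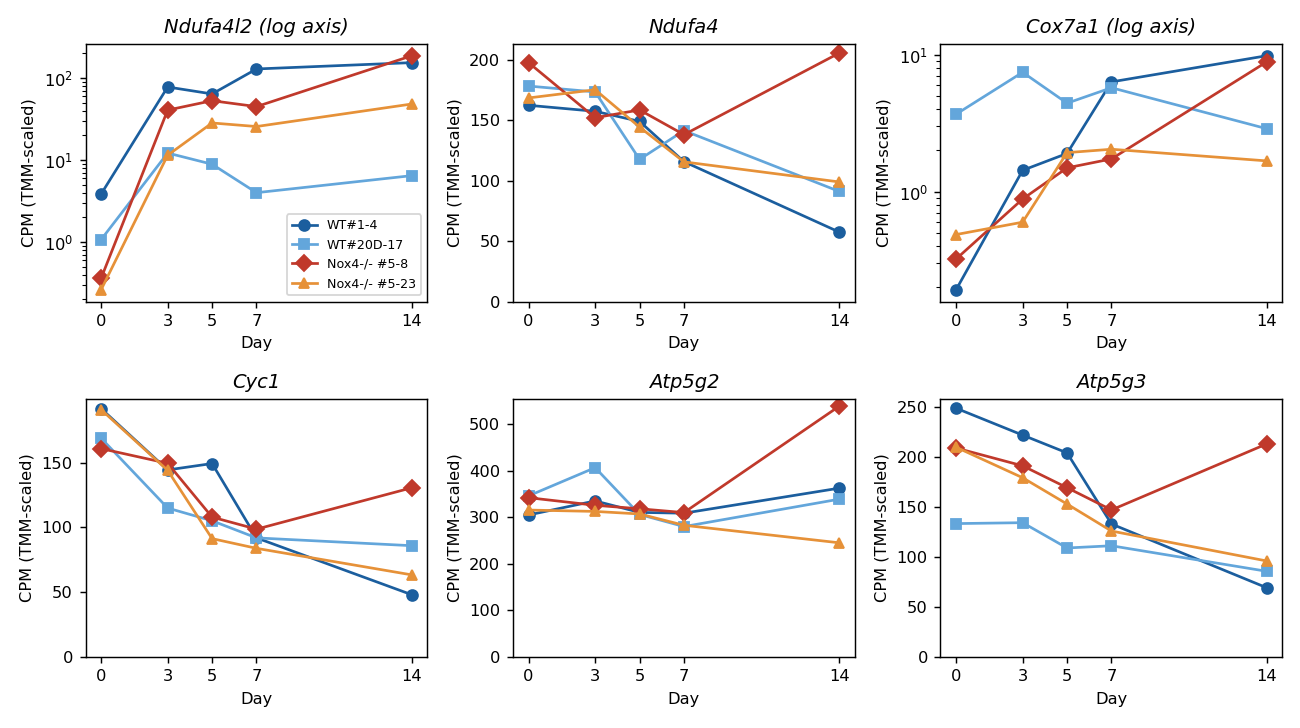
TMM-scaled CPM of Ndufa4l2, Ndufa4, Cox7a1, Cyc1, Atp5g2 and Atp5g3 against the day of culture, 1 point per library and 1 line per cell line; Ndufa4l2 and Cox7a1 are on log axes. Ndufa4l2 climbs in every line from 0.260 to 3.84 CPM on day 0 to 6.46 to 188 on day 14, and Cyc1 falls in every line with an upturn in Nox4-/- #5-8 on day 14.

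The day 14 library of Nox4-/- #5-8 changed how many nuclear members were called. Of the 89, 58 were lower on day 14 in all 3 other lines, and 46 of these 58 were higher in Nox4-/- #5-8, whereas 24.2% of all genes were lower in those 3 lines and 20.7% of these were higher in Nox4-/- #5-8. Without that library 35 nuclear members were called, 32 lower and 3 higher, against 28.5% of all genes (14.2% lower and 14.4% higher), and the median was -0.40 with 76 of 89 negative. Of the 17 members called with all libraries 14 were among the 35. By set, 10 of 36 complex I subunits, 3 of 8 assembly factors, 2 of 4 in complex II, 4 of 9 in complex III, 5 of 13 in complex IV and 8 of 16 in complex V were then lower. Cox5a, a subunit of complex IV, had a change of -0.92, Cox5b -0.85, Cox7b -0.54 and Cox4i1 -0.50 in this fit, all called. The library was left out after its values had been seen, and nothing in the labels sets it apart.

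Short genes were higher in that library as a whole. Other protein-coding genes were divided by exon length into 4 groups of equal size, with median lengths of 1926, 3500, 5380 and 9069 bases. Their median log2 changes from day 0 to day 14 in Nox4-/- #5-8 were 0.31, 0.08, -0.03 and -0.30, from the shortest group to the longest, and in the other 3 lines they lay between -0.07 and 0.09 in every group. The nuclear members had a median exon length of 1718 bases, and the 67 of them in the shortest group had a median change of 0.57 in Nox4-/- #5-8 and of -0.48, -0.27 and -0.22 in WT#1-4, WT#20D-17 and Nox4-/- #5-23. The 79 cytosolic ribosomal protein genes, which are similarly short, had median changes of 0.56 in Nox4-/- #5-8 and of 0.03, -0.33 and -0.35 in the other lines. The 13 mitochondrially encoded members, with a median length of 784 bases, had a median of -0.68 in that line. The part of gene length in the result was not tested.

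**Figure D4:**
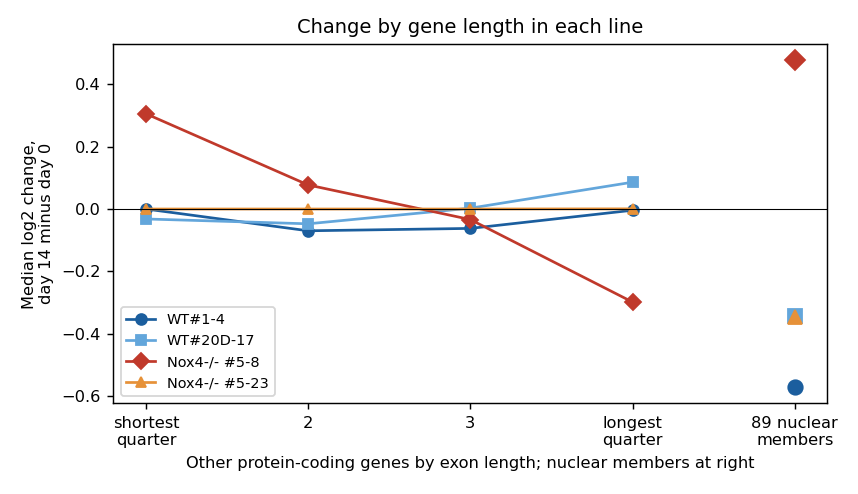
Median log2 change from day 0 to day 14 in each line (y axis) for 4 groups of other protein-coding genes ordered by exon length, from the shortest to the longest, and for the 89 nuclear members at the right. In Nox4-/- #5-8 the groups descend from 0.31 to -0.30 and the nuclear members lie at 0.48, while the groups of the other 3 lines lie between -0.07 and 0.09 and their nuclear members between -0.57 and -0.34.

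Of the 13 mitochondrially encoded members, which code for the membrane core of complexes I, III, IV and V, 5 fell and none rose on day 14 (38.5%, against 27.8% of all genes). All 13 log2 fold changes were negative (that of mt-Nd6 was 0.03 with the size factors of DESeq2 or upper quartile scaling), with a median of -0.93. By edgeR's quasi-likelihood test 9 of the 13 had an unadjusted p under 0.05, as had 9293 of all 18474 genes. Without WT#1-4, without WT#20D-17 or without Nox4-/- #5-8 only mt-Nd1, mt-Nd2 and mt-Cytb were called, 3 in place of 5. In all 4 lines 6 of them were lower, and their median changes were -1.34 in WT#1-4, -1.99 in WT#20D-17, -0.68 in Nox4-/- #5-8 and 0.02 in Nox4-/- #5-23. The last line thus departed from the rest. Over the course the median log2 fold change against day 0 was -0.35 on day 3, -0.66 on day 5, -0.76 on day 7 and -0.93 on day 14. With the test on any of the 4 later days, mt-Nd1, mt-Nd2 and mt-Cytb were called (23.1% of the 13, against 17.3% of all genes).

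Complex III has a single mitochondrially encoded subunit, cytochrome b, and in the counts as deposited its gene mt-Cytb showed the largest fall of the 13 (with the nuclear copies described below added, mt-Nd3 fell further). It went from 3097 to 431 CPM in WT#1-4, 2003 to 224 in WT#20D-17, 4024 to 1124 in Nox4-/- #5-8 and 2997 to 1684 in Nox4-/- #5-23. The drop was present by day 3 in all 4 lines, at 1855 CPM in WT#1-4, 868 in WT#20D-17, 1839 in Nox4-/- #5-8 and 1992 in Nox4-/- #5-23, and no day 14 value reached the lowest day 0 value. The log2 fold change was -2.07 ± 0.35 (SE, FDR 0.000213 by edgeR).

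The 7 mitochondrially encoded complex I subunits form the proton-pumping membrane arm, and 3 of them fell. For mt-Nd1 the values went from 2213 to 619 CPM in WT#1-4, 1624 to 296 in WT#20D-17, 3046 to 1229 in Nox4-/- #5-8 and 2817 to 1549.9 in Nox4-/- #5-23, without overlap, a log2 fold change of -1.57 ± 0.24 (FDR 8.56e-05 by edgeR). For mt-Nd2 they went from 1191 to 331 CPM in WT#1-4, 964 to 192 in WT#20D-17, 1617 to 580.2 in Nox4-/- #5-8 and 1448 to 899.8 in Nox4-/- #5-23, -1.53 ± 0.23 (FDR 8.91e-05). For mt-Nd4 they went from 1325 to 523 CPM in WT#1-4, 1317 to 252 in WT#20D-17, 1790.3 to 904 in Nox4-/- #5-8 and 1438 to 1338 in Nox4-/- #5-23, -1.14 ± 0.25 (FDR 0.00201), and the call was lost without WT#1-4 (FDR 0.0221), without WT#20D-17 (0.0115) and without Nox4-/- #5-8 (0.0199). The wild type lines held the lowest day 14 values of all 3 genes. The other 4 complex I genes had changes of -1.59 for mt-Nd4l (FDR 0.0107), -0.93 for mt-Nd3, -0.54 for mt-Nd5 and -0.02 for mt-Nd6, and were not called. The gene mt-Nd6 lies on the strand opposite to mt-Nd5 and overlaps it at its end (chrM:11742-13565 and chrM:13552-14070 in GRCm38), and its change was 0.03 with the size factors of DESeq2 or upper quartile scaling and 0.24 and 0.36 without WT#1-4 and without WT#20D-17.

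Complex V has 2 mitochondrially encoded subunits in overlapping reading frames. Of these mt-Atp8 fell by 1.10 ± 0.30 on the log2 scale (FDR 0.00755 by edgeR), and its call was lost without WT#1-4, without WT#20D-17 or without Nox4-/- #5-8, with FDR between 0.0218 and 0.0445, and without the day 14 library of the latter line (0.0151). The change of mt-Atp6 was -0.90 (FDR 0.0197). The 3 complex IV genes did not pass the test, with changes of -0.78 for mt-Co2, -0.16 for mt-Co1 and -0.15 for mt-Co3. The level of mt-Co1 went from 9390.0 to 10201 CPM in WT#1-4, 8163 to 3683 in WT#20D-17, 11421 to 10559 in Nox4-/- #5-8 and 8552 to 11549 in Nox4-/- #5-23, lower on day 14 in WT#20D-17 and Nox4-/- #5-8 and higher in WT#1-4 and Nox4-/- #5-23. Without WT#20D-17 the changes of mt-Co1 and mt-Co3 were 0.17 and 0.24.

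Counts of several mitochondrial genes were divided with a nuclear copy. The mouse genome carries a stretch of mitochondrial sequence on chromosome 1, annotated in GRCm38 between 24611535 and 24616197 as 7 pseudogenes. Those of mt-Nd4l, mt-Atp6, mt-Co3 and mt-Co2 and of the first 876 bases of mt-Nd4 are identical to the gene over their length, that of mt-Nd3 has 1 mismatch (99.7%), and that of the last 492 bases of mt-Co1 has 6 (98.8%). Reads from an identical stretch cannot be assigned to either place, and for 5 of the genes the copy held more of the estimated counts than the gene. The mean count was 55111 for the copy of mt-Co2 and 9044 for mt-Co2, 54364 for the copy of mt-Atp6 and 11458 for mt-Atp6, 46937 and 16797 for mt-Co3, 6897 and 745 for mt-Nd3, and 5133 and 932 for mt-Nd4l. The 5′ end of the mt-Co1 copy is printed beside the gene because it holds all 6 differences, and the bases after them are identical. Bases that differ are in capitals, and counted from the first base of mt-Co1, with the gene's base first, they are T1056A, C1057T, A1059G, A1060G, C1062A and A1066T.
mt-Co1, chrM:6381-6500, plus strand: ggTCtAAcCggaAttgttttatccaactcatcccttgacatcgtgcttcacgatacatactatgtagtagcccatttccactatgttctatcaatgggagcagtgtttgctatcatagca
Gm29216, chr1:24616078-24616197, minus strand: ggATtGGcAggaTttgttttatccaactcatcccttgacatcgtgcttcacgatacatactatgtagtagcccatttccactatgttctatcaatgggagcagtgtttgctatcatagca

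Once the counts of the copies were added to the genes they copy, 7 of the 13 members were called on day 14, all lower (27.8% of all genes were called before the addition). The 2 added were mt-Nd3, with -2.32 ± 0.38 (FDR 0.000186 by edgeR), and mt-Nd4l, with -1.92 ± 0.35 (FDR 0.000449). With copies, mt-Nd3 went from 489 to 48.5 CPM in WT#1-4, 272 to 21.7 in WT#20D-17, 723 to 212 in Nox4-/- #5-8 and 621 to 266 in Nox4-/- #5-23, lower in every line. The changes of mt-Co2, mt-Atp6 and mt-Co3 were then -0.74, -0.94 and -0.34, not called, and that of mt-Co1 was 0.004. With copies, mt-Co3 went from 2953 to 1884 CPM in WT#1-4, 2829 to 664 in WT#20D-17, 3678 to 4673 in Nox4-/- #5-8 and 2564 to 4400.2 in Nox4-/- #5-23, lower in both wild type lines and higher in both Nox4-/- lines. This addition was chosen after the copies had been seen, and reads transcribed from chromosome 1 itself, if any, are counted in it.

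The share of all counts that fell in the 13 mitochondrially encoded members summarised the compartment. It went from 2.09 to 1.34% in WT#1-4, from 1.63 to 0.485% in WT#20D-17, from 2.63 to 1.70% in Nox4-/- #5-8 and, for Nox4-/- #5-23, from 1.98 to 2.17%. The mean change was -0.656 ± 0.588 percentage points (SD, n = 4 lines), lower in 3 of 4 lines, with p = 0.25 in an exact two-sided sign-flip permutation test, where 4 lines allow no p under 0.13. With the copies added the mean change was -0.816 points. Libraries were prepared from polyadenylated RNA, and the 2 mitochondrial ribosomal RNAs together made up 0.0131 to 0.0632% of counts. WT#20D-17 on day 14, the library with the lowest share of the members, was also lowest in these ribosomal RNAs.

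**Figure D5:**
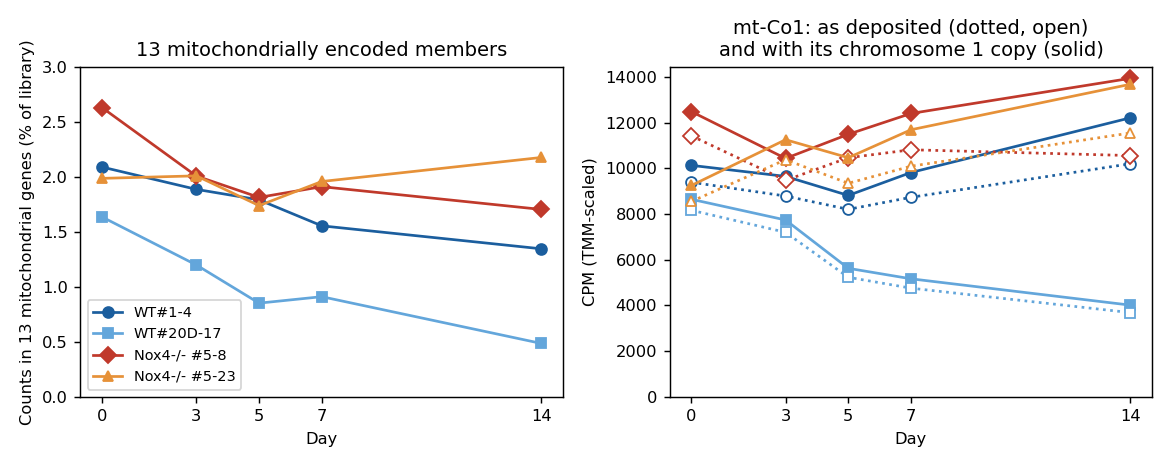
Left, percent of each library's counts in the 13 mitochondrially encoded members against the day of culture for the 4 lines. Right, TMM-scaled CPM of mt-Co1 as deposited (dotted, open points) and with the counts of its chromosome 1 copy added (solid). WT#20D-17 runs lowest from day 0 and ends at 0.485%, and Nox4-/- #5-23 ends at 2.17%, above its day 0 value of 1.98%.

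Genes that direct mitochondrial transcription were examined beside the members. Of 25 tested regulators of mitochondrial biogenesis, 9 fell on day 14 and none rose, where 13.5% of all genes fell and 14.3% rose. Their median log2 fold change was -0.60, against a median of 0.04 over all genes. Lrpprc, which stabilises mitochondrial messenger RNAs, fell by 1.65 ± 0.21 (FDR 1.59e-05 by edgeR), from 121 to 24.9 CPM in WT#1-4, 80.0 to 17.5 in WT#20D-17, 111 to 55.3 in Nox4-/- #5-8 and 121 to 49.7 in Nox4-/- #5-23. Tfam, which packages mitochondrial DNA and helps to start its transcription, fell by 1.32 ± 0.21 (FDR 0.00015), from 80.5 to 18 CPM in WT#1-4, 106 to 36.5 in WT#20D-17, 86.1 to 50.2 in Nox4-/- #5-8 and 78.8 to 39 in Nox4-/- #5-23. Both were lower in every line without overlap. Polrmt, the mitochondrial RNA polymerase, fell by 1.14 ± 0.17, Pprc1, a coactivator related to PGC-1, by 1.59 ± 0.26, and Nrf1 by 0.58 ± 0.13, whose call was lost without WT#20D-17 (FDR 0.01003) and without Nox4-/- #5-23 (0.0424). Esrrb, a nuclear receptor of pluripotent cells, fell by 3.76 ± 0.99 (FDR 0.00854), which was not called with any 1 line left out (FDR between 0.0120 and 0.0162, and too low to be tested without WT#20D-17), and it was under 1 CPM in mean in WT#1-4 and both Nox4-/- lines. Gabpa had a change of -0.37, Esrra 0.01, Tfb2m -0.21, Slirp 0.19 and Ppargc1b -1.41 (FDR 0.0213), and none was called. Ppargc1a, which encodes PGC-1 alpha, reached at most 1.42 CPM.

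Of 12 tested genes of mitochondrial RNA processing and decay 9 fell and none rose, with a median of -1.18. Of all genes 13.5% fell and 14.3% rose, which holds for the lists that follow too. Of 78 mitochondrial ribosomal protein genes 23 fell and 1 rose, with a median of -0.50, and their median in Nox4-/- #5-8 was 0.15. Of the assembly factors outside the members, 0 of 4 for complex II and 0 of 6 for complex III were called, 5 of 21 for complex IV fell and 4 rose, and 2 of 4 for complex V fell. Atpif1, the inhibitor of complex V, had a change of 0.19 and was not called.

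The 2 wild type lines differed in the mitochondrially encoded members. Over the 5 days 10 of the 13 were lower in WT#20D-17 than in WT#1-4 and none was higher (76.9%), against 39.8% of all genes called between these lines and 19.1% called lower, by edgeR's quasi-likelihood test with day as a term. The count depended on the days used: 3 were called without day 3, 2 without day 5, 3 without day 7 and 5 with no day term, against 8 without day 0 and 11 without day 14. Without day 3, 5 or 7, mt-Nd1 and mt-Nd3 were called each time. The days of a line are repeated samples of 1 clone, so this compares the 2 clones and not a condition. The median difference of the 13 was -0.90 on the log2 scale, and 11 of them were lower on all 5 days. The largest was mt-Nd3 at -2.90 ± 0.39 (SE, FDR 1.27e-05), with 1.74 to 11.3 CPM over the days in WT#20D-17 and 10.9 to 79.4 in WT#1-4. It was followed by mt-Nd4l at -1.53, mt-Cytb at -1.12, mt-Nd1 at -1.10 and mt-Nd5 at -0.96. With copies added, 8 were lower, mt-Nd3 at -1.42 and mt-Nd4l no longer among them. For mt-Co1 every value in WT#20D-17 (3683 to 8163 CPM) lay below every value in WT#1-4 (8205 to 10201).

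Among the nuclear members 8 (8.99%) were lower in WT#20D-17 and none was higher, against 39.8% of all genes called and 19.1% called lower. The median difference was -0.12. Cox7a2l stood out by its evenness over days: it lay at 63 to 101 CPM in WT#20D-17 and at 209 to 312 in WT#1-4. The log2 difference was -1.80 ± 0.13 (SE, FDR 1.44e-08 by edgeR). In both Nox4-/- lines it lay between 185 and 377 CPM, so WT#20D-17 stood below the other 3 lines on every day. Decimals in 85% of its values mark reads shared with other genes. Ndufa4l2 was lower by 3.37 ± 0.59 on the log2 scale (FDR 0.000171), and Ndufaf2 had a difference of -1.42, Ndufb4 of -1.12 and Sdhb of -1.09. Ndufb4, an accessory subunit of complex I, lay at 11.3 to 20.8 CPM in WT#20D-17 and at 25.9 to 39.2 in WT#1-4, and Ndufb6 at 26.2 to 46.8 and 59.6 to 69.4. Of the 8 nuclear members 5 were called without day 5, where Ndufb4 (FDR 0.0153), Ndufb6 (0.0282) and Ndufs5 (0.0111) were not. Ndufb6 also lost its call without day 7 (FDR 0.0257), and Ndufa4l2 with no day term (FDR 0.0121). Among all nuclear members 22 were called without day 14. Cox7a2l, Ndufb4, Ndufb6 and mt-Co1 had every WT#20D-17 value below every WT#1-4 value, as 13.2% of all genes did, and Cox5b alone lay above throughout (86.38 to 123.9 against 28.31 to 86.33 CPM), as 15% did.

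Between the 2 Nox4-/- lines no member was called, where 3.55% of all genes were by edgeR's quasi-likelihood test. At an unadjusted p under 0.05 by that test, 18 of the 89 nuclear members and none of the mitochondrially encoded ones differed, as did 3950 of all 18474 genes. DESeq2 called 1 nuclear member, Uqcrc2, and no mitochondrially encoded one. The lowest FDR was 0.0727 for Ndufa6 and 0.632 among the mitochondrially encoded members. Nonetheless 84 of the 89 nuclear members were lower in Nox4-/- #5-23, with a median of -0.27, which became -0.07 without the day 14 library of Nox4-/- #5-8. Atp5j2, a small membrane subunit of complex V on chromosome 5, was called higher in Nox4-/- #5-23 without that library. It lay at 78.1 to 122 CPM in Nox4-/- #5-23 and at 73.7 to 123 in Nox4-/- #5-8. Genes of chromosome 5 as a whole (1209 genes) were higher in Nox4-/- #5-23 than in Nox4-/- #5-8 by a median log2 ratio of 0.30 to 0.47 on the 5 days. The part of the chromosome in the values of its members Atp5j2, Cox6a1 and Atp5k was not tested.

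Genotype was first compared with the exact test of edgeR on the 15 libraries of WT#1-4, Nox4-/- #5-8 and Nox4-/- #5-23 with all days pooled, as the methods of the work describe. That test takes the days of a clone as replicates, which they are not. Only Cox6b2 was called among the 102 members, where 5.62% of all genes were. This gene, the testis form of a complex IV subunit (chr7:4751792-4753094, GRCm38), lay at 21.4 to 35.3 CPM in WT#1-4, at 38.3 to 87.3 in Nox4-/- #5-8 and at 40.0 to 63.2 in Nox4-/- #5-23, and every Nox4-/- value was above every WT#1-4 value. The log2 difference was 0.90 ± 0.19 (SE from the quasi-likelihood fit of the same libraries, FDR 0.00126 by the exact test). In WT#20D-17, however, it ranged from 18.1 to 55.3 CPM, across both ranges. When WT#20D-17 was substituted for WT#1-4 the difference was 0.64 (FDR 0.0391), with counts summed per line it was 0.78 ± 0.21 (FDR 0.604, edgeR's quasi-likelihood test), and without Nox4-/- #5-23 (FDR 0.0172) or without day 0, 5 or 7 (FDR between 0.0123 and 0.0297) the call was lost. The next nuclear members were Atp5j2 at 0.61 (FDR 0.0265) and Uqcr11 at -0.69 (FDR 0.0348). By the exact test 15 of the 89 had an unadjusted p under 0.05, as had 5684 of all 33860 genes. Of the 89, 75 were higher in the Nox4-/- lines, with a median of 0.18.

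The calls between genotypes differed with the wild type line used. No mitochondrially encoded member was called against WT#1-4 by the exact test, and DESeq2 called 0. In the exact test 1 (mt-Nd6) had an unadjusted p under 0.05, as had 5684 of all 33860 genes. Against WT#20D-17 instead, 10 of the 13 were higher in the Nox4-/- lines, together with 12 nuclear members, where 25.8% of all genes were called. Of the nuclear ones Cox7a2l had a difference of 1.68, Ndufb6 1.26, Ndufaf8 1.22, Ndufs5 1.11 and Sdhb 1.08, and Cox6b2 was not among them. With both wild type lines in the 20 libraries, 5 nuclear members (Ndufa12, Atp5j2, Atp5l, Cox6b2 and Ndufb6) and no mitochondrially encoded one were called, where 12.1% of all genes were. With the counts of each line summed, so that 2 lines stood against 2, no member and 0% of all genes were called. In that test 2 nuclear and no mitochondrially encoded members had an unadjusted p under 0.05, as had 1628 of all 20229 genes. The lowest FDR in that test was 0.604 among the nuclear and 0.605 among the mitochondrially encoded members.

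The course over days was compared between genotypes with the interaction of genotype and day over all 4 lines. No member was called by edgeR's quasi-likelihood test, where 0.0104% of all genes were. At an unadjusted p under 0.05 stood the nuclear members Ndufa4l2, Sdhb and Ndufb4 and the mitochondrially encoded mt-Nd6, mt-Nd5, mt-Nd1, mt-Cytb and mt-Nd4, and 1391 of all 19240 genes. The lowest FDR was 0.577 among the nuclear and 0.432 among the mitochondrially encoded members, and DESeq2 called mt-Nd6 and no nuclear member. The day 14 change was more positive in the Nox4-/- lines for all 13 mitochondrially encoded members, with a median difference of 1.17 on the log2 scale, and for 80 of the 89 nuclear members, with a median of 0.52. Without the day 14 library of Nox4-/- #5-8 these medians were 1.62 and 0.10. For mt-Nd6 the difference was 2.09 ± 0.45 (SE): its level went from 207 to 107 CPM in WT#1-4, 114 to 31.1 in WT#20D-17, 226 to 443 in Nox4-/- #5-8 and 205 to 312 in Nox4-/- #5-23, lower in both wild type lines and higher in both Nox4-/- lines. The strand setting of the counting is not given, so reads from the opposite strand may be counted in mt-Nd6.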

How the data were processed

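Polyadenylated RNA of 20 libraries was measured with a stranded paired-end kit. The authors trimmed reads with fastx_toolkit, mapped them to GRCm38 (mm10) with STAR 2.6.0c and deposited the expected counts of RSEM 1.3.1 per Ensembl gene, without normalization. Whether RSEM was told the strand is not given in the sources used here, so overlapping antisense genes cannot be told apart. RSEM divides reads among similar genes: 9.921% of values, and at least 1 value of 37 members, had decimals. Gene symbols and coordinates came from GENCODE M21, which held 55480 of the 55573 identifiers.

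The expected counts were rounded and scaled with TMM in edgeR 4.0.16 (limma 3.58.1, R 4.3.3). Day 14 was compared with day 0, and the lines with each other, in a quasi-likelihood fit with line and day as terms over 20 libraries (18474 genes after edgeR's expression filter). For genotype, edgeR's exact test was used (33860 genes with a nonzero value) and for genotype by day the quasi-likelihood test (19240 genes). Calls used an FDR of 0.01 by the Benjamini-Hochberg method over all genes tested, and a pseudocount of 1 CPM was added for changes within a line. The study's EBSeq-HMM fits were not repeated. DESeq2 1.42.0, other scalings and filters, and fits leaving out lines, days or libraries were tried. Only the fits for day 14, genotype and genotype by day were tested on simulated data. Those counts were drawn independently for each library, so they cannot show the effect of taking the days of a clone as replicates. At 20294968 to 27708023 counts per library, 3 counts were at most 0.148 CPM. Precision is limited by 1 library per line and day, and p-values measure the spread between clonal lines or between days.

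The replicate number of the labels stands for the cell line, which pairs the days. This was checked: the log2 difference between the lines of a genotype correlated between days at 0.541 to 0.918 for the wild type and 0.401 to 0.853 for the Nox4-/- lines. No 2 libraries of a line agree within sampling noise (chi-square per gene at least 11.1).

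The members and lists were chosen with earlier results of these data known. Named were all mitochondrially encoded members, the 5 largest called rises and falls of each comparison, isoform sets, catalytic subunits and listed regulators. Cox5a, Cox5b, Ndufab1, Ndufa10, Atp5f1, Uqcr11, Ndufaf8 and the members listed only in counts are outside that rule and were named after their values were seen.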

Additional observations from a re-analysis of the deposited data

Results flagged for a closer look

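A pair of summaries of the members moved in opposite directions in different lines, with 1 library per line and day, so that the difference was not tested. The median log2 change of the 89 nuclear members from day 0 to day 14 was -0.57 in WT#1-4, -0.34 in WT#20D-17 and -0.34 in Nox4-/- #5-23, and 0.48 in Nox4-/- #5-8. The share of counts in the 13 mitochondrially encoded members changed by -0.742 percentage points in WT#1-4, -1.15 in WT#20D-17 and -0.924 in Nox4-/- #5-8, and by 0.190 in Nox4-/- #5-23. The line that went against the others was not the same for the nuclear and the mitochondrially encoded members, and both were Nox4-/- lines.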

How the results depend on the processing

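Main results stayed the same in 111 recomputed cases and moved further in 46. For counts of called members, the same meant equal to the reported count or within 1.5 times of it. A count of 0 in both fits was thus also the same. The 111 include cases of the mean change in the mitochondrially encoded share, which was compared by its sign alone. Without the replicate block, that is with genotype in place of line, 9 nuclear and 3 mitochondrially encoded members were called on day 14, and 2 and 0 on any day. Leaving out 1 line at a time gave 4 to 19 nuclear and 3 to 6 mitochondrially encoded calls on day 14, 1 to 6 and 0 to 3 on any day, 0 to 1 and 0 to 1 for genotype by day, and 0 to 2 nuclear calls for genotype. Such fits hold fewer samples. Except where a share is given, the counts in this section stand without the share of all genes called in the same fit. They show how calls moved with the setting and do not compare the members with other genes. Ndufa4l2, Ndufa6, Ndufaf4, Atp5a1, mt-Nd1, mt-Nd2 and mt-Cytb were called on day 14 with each line left out and without the block.

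Without the day 14 library of Nox4-/- #5-8 the counts of nuclear calls were 35 on day 14 (28.5% of all genes), 21 on any day, 1 between the Nox4-/- lines (Atp5j2) and 2 for genotype. DESeq2 called 14 nuclear and 6 mitochondrially encoded members on any day, 1 nuclear member between the Nox4-/- lines, 1 mitochondrially encoded member for genotype by day and 2 nuclear members for genotype. Between the wild type lines the mitochondrially encoded calls were 5 with no day term and 3, 2 and 3 without day 3, 5 and 7, and the nuclear calls 5 without day 5 and 22 without day 14. Without day 14, 2 nuclear members differed between the Nox4-/- lines. The nuclear calls for genotype were 2 with edgeR's expression filter, 4 in a quasi-likelihood test with day, 0 at an FDR of 0.001, 12 against WT#20D-17 (10 mitochondrially encoded), 5 with both wild type lines, 0 with counts summed per line, 0 without day 0, 5 or 7 and 3 without day 14. Of all genes, 25.8% were called against WT#20D-17, 12.1% with both wild type lines and 0% with counts summed per line. With the chromosome 1 copies added, 5 mitochondrially encoded members were called on any day. The cause was not tested in these cases.

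The sign turned for mt-Nd6 on day 14 (0.026 with size factors of DESeq2 in edgeR, 0.030 with upper quartile scaling, 0.024 in DESeq2, 0.0057 without the block, 0.243 and 0.358 without WT#1-4 and WT#20D-17), mt-Co1 (0.172 without WT#20D-17, 0.0043 with copies) and mt-Co3 (0.238 without WT#20D-17). With 1 line left out the lowest values were -0.51 for mt-Nd6, -0.37 for mt-Co1 and -0.49 for mt-Co3. None of these was called. The median of all genes on day 14 was 0.04 in the fit reported (18474 genes) and 0.29 in DESeq2, over 33631 genes. The mitochondrially encoded members have no value with their own genes removed from the totals.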
